A study of Mus musculus with 203 samples.

Results

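Basal and squamous epithelial genes were followed in the airway and parenchyma of mouse lung across every exposure of the series. The 10 genes, of 43346 identifiers in the gene table, were Krt5, Krt14, Krt15, Trp63, Krt13, Krt4, Sprr1a, Sprr2a1, Sprr2a2 and Sprr2a3, matched by Ensembl identifier, and they were picked by name, in part for their measured rise with house dust mite (HDM), so every difference between HDM and phosphate buffered saline (PBS) is given as a description with no test. RNA sequencing covered 20 groups of libraries from female Balb/C mice labelled as 18-20 weeks of age, with airway and parenchyma separated by blunt dissection. At 3 weeks there were 11 airway and 12 parenchyma libraries of PBS mice and 10 of each tissue from mice given HDM intranasally on 5 days per week for 3 weeks. At 11 weeks each group held 10 libraries. In those mice HDM or PBS went on 3 times per week from weeks 4 to 11, while over 8 weeks the mice breathed normal air (AIR) or, on 5 days a week and 2 times daily, cigarette smoke (CS), and separate mice received dexamethasone (DEX, a glucocorticoid) during week 11. The 16 groups at 11 weeks were thus PBS AIR, PBS AIR DEX, HDM AIR, HDM AIR DEX, PBS CS, PBS CS DEX, HDM CS and HDM CS DEX in each tissue. Nothing in the labels says which airway and parenchyma libraries came from one mouse, and p-values measure the spread between these libraries.

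Basal cells lie on the basement membrane of the conducting airway and act as its stem cells. They carry the transcription factor p63 (Trp63) and the keratins K5 (Krt5) and K14 (Krt14), with K15 (Krt15) also found in basal cells of stratified epithelia. Krt13 and Krt4 encode the keratin pair of the layers above the basal cells in non-cornified squamous epithelia such as the oesophagus. Small proline-rich proteins (Sprr1a and the Sprr2 family) are cross-linked into the cornified envelope of squamous cells, and Sprr genes are known to be induced in other epithelia under stress and in allergic inflammation. The alveolar parenchyma normally holds few basal cells. In bulk tissue, fewer cells of a type and less RNA per cell cannot be told apart.

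All 10 genes are protein coding, and their positions here are in mm10 (GRCm38). The Sprr genes lie on chromosome 3, with Sprr2a1 at 92215799-92221911, Sprr2a2 at 92215920-92256724 and Sprr2a3 at 92285417-92291405 on the plus strand, and Sprr1a at 92483952-92485895 on the minus strand. The annotated span of Sprr2a2 contains most of Sprr2a1. Krt13 (100117327-100121566), Krt15 (100131758-100135928) and Krt14 (100203162-100207548) lie on the minus strand of chromosome 11. Krt5 (101707070-101712898) and Krt4 (101918535-101924735) lie on the minus strand of chromosome 15, and Trp63 (25683763-25892102) on the plus strand of chromosome 16. The coding sequences of the Sprr2a copies are shown because their likeness limits what each copy's count can mean. Over 249 coding bases without the stop codon, Sprr2a2 equalled Sprr2a1 at every base, and Sprr2a3 differed from them by G63A, G159T and A192T (Sprr2a1 base, position from the A of the start codon, Sprr2a3 base), an identity of 98.8%. The differing bases are in capitals.
Sprr2a1: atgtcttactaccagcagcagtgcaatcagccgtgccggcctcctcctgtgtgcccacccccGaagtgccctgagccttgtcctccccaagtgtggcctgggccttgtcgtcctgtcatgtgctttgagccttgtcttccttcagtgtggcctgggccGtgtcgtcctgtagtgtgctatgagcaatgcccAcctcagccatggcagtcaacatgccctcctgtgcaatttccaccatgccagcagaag
Sprr2a3: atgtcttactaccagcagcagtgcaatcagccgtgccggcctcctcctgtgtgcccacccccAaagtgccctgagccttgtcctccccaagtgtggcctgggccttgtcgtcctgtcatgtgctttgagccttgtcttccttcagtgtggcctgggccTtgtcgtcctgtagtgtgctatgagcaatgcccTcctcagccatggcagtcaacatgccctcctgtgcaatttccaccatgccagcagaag
Of the 100-base windows of the annotated exons, 7.61% in Sprr2a1, 7.19% in Sprr2a2 and 63.8% in Sprr2a3 occurred in no other copy. Nearly all non-zero counts of Sprr2a1 and Sprr2a2 were fractions, and over all libraries 1270.84 counts went to Sprr2a1, 61850.86 to Sprr2a2 and 47579.46 to Sprr2a3. How the quantification shared reads between the copies cannot be settled from these files, so each copy's value is uncertain and the sum of the 3 rows, called the Sprr2a sum, is used for levels.

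Promoters are shown because the Sprr2a copies and Sprr1a, neighbours on chromosome 3, were called in different contrasts of smoke and DEX. RefSeq promoters (GRCm38.p6, 250 bases before and 50 after the start) were matched for 7 of the 10 genes. Those of Sprr2a1 and Sprr2a2 were the same over all 300 bases, and that of Sprr2a3 held 272 of the same bases, shifted by 28. Capitals mark TTCNNNNGAA in Sprr2a1 and TGANTCA in Sprr1a.
Sprr2a1, chr3:92215585-92215884, plus strand: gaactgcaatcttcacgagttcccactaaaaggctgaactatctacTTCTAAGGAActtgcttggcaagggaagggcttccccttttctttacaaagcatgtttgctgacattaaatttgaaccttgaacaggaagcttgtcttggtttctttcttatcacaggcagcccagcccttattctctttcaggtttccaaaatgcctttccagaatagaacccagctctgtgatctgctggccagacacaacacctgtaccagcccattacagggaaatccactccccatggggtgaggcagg
Sprr1a, chr3:92485832-92486131, minus strand: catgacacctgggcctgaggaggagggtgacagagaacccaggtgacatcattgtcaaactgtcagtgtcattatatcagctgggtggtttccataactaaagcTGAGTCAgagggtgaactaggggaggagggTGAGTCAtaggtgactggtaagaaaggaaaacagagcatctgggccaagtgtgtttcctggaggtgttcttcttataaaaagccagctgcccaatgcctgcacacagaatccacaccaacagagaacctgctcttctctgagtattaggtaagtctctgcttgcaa
TTCNNNNGAA, the spacing known for STAT6, occurred once in each Sprr2a promoter, at -204 from the start in Sprr2a1 and Sprr2a2 and at -176 in Sprr2a3, and in 6.95% of 32851 promoters searched on both strands. TGANTCA, the AP-1 motif, occurred at -146 and -116 in Sprr1a, was not in the Sprr2a windows, and was found at least once in 7.81% of promoters and 2 or more times in 0.46%. It was also in the windows of Krt13. TTCNNNGAA (8.3% of promoters) was in Sprr2a3 alone of the Sprr2a copies, at -249. ACANNNTGT, a glucocorticoid receptor consensus without its outer bases (6.85% of promoters), was in none of the windows of the 7 genes, and TATAAAA (5.48%) was in Sprr1a, at -43. A match is a description of letters, not a bound site.

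Counts per library ranged from 13003154 to 40240733, with a median of 28090684. Levels are CPM, each gene's counts scaled to a common library size with TMM factors. Of the 10 genes, 9 passed the filter on low counts at each time point. Krt13 was not tested at 3 weeks and Sprr2a1 was not tested at 11 weeks. Some libraries were high for many of these genes at once. Library X153 (PBS CS airway) was the highest of its group for all 8 units, that is, the 7 single genes and the Sprr2a sum. X5 (PBS AIR airway), X7 (PBS AIR DEX airway) and X9 (HDM AIR airway) were highest for 6, and X81 (3 week PBS airway) and X151 (HDM AIR DEX airway) for 5. Without these 6 airway libraries no gene that was called lost its call. X109 (HDM AIR airway) was the lowest of its group for Krt5, Krt15 and Trp63, at 0.391, 0.568 and 1.14 CPM, and also had the group's lowest sum for submucosal gland and myoepithelial genes (198.9 CPM) and its highest for leukocyte genes (17745 CPM). Whether tissue sampled in dissection had a part in these values was not tested.

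Basal keratins and Trp63 were airway genes in unexposed lung. Krt5 ranged from 10.4 to 65.98 CPM (median 21.7) in the 11 airway libraries of 3 week PBS mice and from 0 to 0.913 CPM (median 0.272) in the 12 parenchyma libraries. Krt15 ranged from 25.1 to 145.2 CPM (median 47.4) in airway and from 0.618 to 2.70 CPM (median 1.11) in parenchyma. Every airway library stood above every parenchyma library for both genes. Trp63, at 4.81 to 20.8 CPM (median 8.66) against 0.328 to 1.09 CPM (median 0.799), did not overlap either. Krt4 was far lower, at 0.467 to 4.34 CPM (median 1.49) in airway and 0 to 0.366 CPM (median 0.202) in parenchyma, again without overlap. Krt14 ranged from 0.0720 to 1.197 CPM (median 0.512) in airway and from 0 to 0.412 CPM (median 0.202) in parenchyma, and only 6 of 11 airway libraries were above all parenchyma libraries. The share of all genes without overlap was counted only for HDM above PBS at 3 weeks, so these comparisons have no such share beside them.

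With the limma-voom test (adjusted p under 0.05 and a log2 fold change, log2FC, of at least 1 in size, here named a call), 4 of the 9 genes tested were higher in 3 week PBS airway than parenchyma and none was lower, against 11.9% of all 17381 genes tested. The log2FC was 6.39 ± 1.204 (SE, adjusted p = 2.05e-05) for Krt5, 5.55 ± 1.01 (adjusted p = 1.29e-05) for Krt15, 3.69 ± 0.50 (adjusted p = 7.38e-08) for Trp63 and 3.19 ± 0.64 (adjusted p = 5.51e-05) for Krt4. Krt14 missed the threshold (1.46 ± 0.68, adjusted p = 0.0646) but was called by edgeR (adjusted p = 0.0237), by DESeq2 (adjusted p = 0.0138) and with all libraries in one fit (adjusted p = 0.0324). Sprr1a differed by 1.03 ± 0.76 (adjusted p = 0.247) and the Sprr2a sum by 0.76 ± 3.03 (adjusted p = 0.844), neither a call by limma. DESeq2 called Sprr1a (log2FC 1.22, adjusted p = 0.0479).

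The other mice, at 11 weeks, gave the same ordering. In PBS AIR airway, Krt5 ranged from 4.63 to 88.4 CPM (median 18.8) against 0 to 0.465 CPM (median 0.0542) in parenchyma, and Krt15 from 9.81 to 246 CPM (median 34.8) against 0.273 to 1.18 CPM (median 0.870). Of the 9 genes tested, 5 were higher in airway and none was lower, against 16.1% of all 18250 genes tested. The log2FC was 7.82 ± 1.62 for Krt5 (adjusted p = 1.3e-05), 5.65 ± 1.03 for Krt15 (adjusted p = 8.22e-07), 3.52 ± 0.46 for Trp63 (adjusted p = 1.89e-11), 3.53 ± 0.82 for Krt4 (adjusted p = 0.000108) and 2.37 ± 0.60 for Krt14 (adjusted p = 0.00035). All 10 airway libraries stood above all parenchyma libraries for the first 4 of these genes and 6 of 10 for Krt14. The share of all genes that stood so was not counted. Krt13 was at 0.0345 to 1.72 CPM (median 0.180) in airway and 0.0829 to 0.384 CPM (median 0.156) in parenchyma, a difference of 0.09 ± 0.52 (adjusted p = 0.898). With a filter of at least 10 CPM the Krt5 call was lost (adjusted p = 0.0569). Sprr1a missed the threshold (1.53 ± 0.88, adjusted p = 0.134), but edgeR (adjusted p = 0.0217) and DESeq2 (adjusted p = 0.00327) called it.

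**Figure D1:**
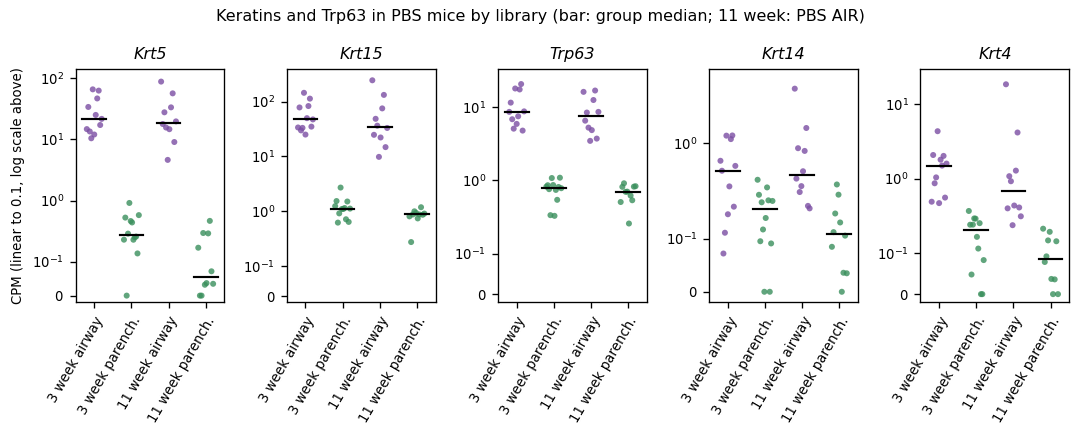
Level of Krt5, Krt15, Trp63, Krt14 and Krt4 (vertical axis, CPM, linear to 0.1 and on a log scale above) in each library of PBS mice at 3 weeks and PBS AIR mice at 11 weeks, airway in purple and parenchyma in green, with a bar at the group median. Airway points of Krt5, Krt15, Trp63 and Krt4 lie above all parenchyma points of the same time, while those of Krt14 overlap.

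Per kilobase of annotated exon, which allows genes to be compared, the median level in 3 week PBS airway was 26.8 CPM per kb for Krt15, 9.87 for Krt5, 1.03 for Trp63, 0.701 for Krt4, 0.291 for Krt14, 0.168 for Sprr1a, 0.137 for the Sprr2a sum and 0.0677 for Krt13. In 3 week HDM airway the order was led by the Sprr2a sum (78.2 CPM per kb), followed by Krt15 (6.51), Krt5 (4.85) and Sprr1a (1.29). In 3 week HDM parenchyma the Sprr2a sum was at 20.2 and Sprr1a at 2.51 CPM per kb, above Trp63 (0.126), Krt15 (0.112) and Krt5 (0.0365). Krt14, the classical partner of Krt5, was thus measured at a small part of the Krt5 level in airway.

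Other cell types known in these tissues were checked with gene lists. Cell types of the conducting airway and its wall stood higher in airway of 3 week PBS mice. Among lists of epithelial genes, 12 of 14 ciliated cell genes (median log2FC 1.56), 5 of 10 club cell genes (0.98), 7 of 20 other basal cell genes (0.47, led by Krt17 at 5.45, Aqp3 at 4.09, Ngfr at 3.40 and Itgb4 at 1.76) and 7 of 15 other squamous and oesophageal genes (0.99, led by Serpinb5 at 4.63, Dsc3 at 4.12 and Pax9 at 3.92) were called higher. The median over all genes was -0.05. The cornified envelope list had 2 of 8 higher (Tgm3 and Rptn, median 0.17), the type 2 response list 12 of 20 (2.08) and the alveolar repair list 3 higher and 2 lower of 18 (-0.00). Submucosal gland and myoepithelial genes (5 of 5, median 4.39), cartilage (7 of 9, 3.13), skeletal muscle (4 of 9, 1.23), thyroid (2 of 5, 0.81) and mesothelial genes (3 of 10, 0.02) were also higher in part. Alveolar type II (3 of 11 lower, -0.66), alveolar type I (4 of 11 lower, -0.98) and leukocyte genes (4 of 12 lower, -0.34) went the other way, and thymocyte genes had no call by limma of 8 (-0.15). The summed level of the 14 submucosal gland and myoepithelial genes was 548 to 2690 CPM (median 951) in this airway group and 47.8 to 121.4 CPM (median 65.6) in parenchyma, where 4 of the 14 were at 0 in every library. The 14 include contractile genes that smooth muscle also makes, so the sum does not single out gland or myoepithelial cells. The part of these cells in the airway levels of the basal genes was not tested beyond the covariation given below.

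The Sprr genes stood far higher with HDM at 3 weeks. The values that follow were used, at least in part, to choose the genes. The Sprr2a sum ranged from 0.0360 to 9.46 CPM (median 0.399) in PBS airway and from 9.74 to 655 CPM (median 228) in HDM airway. In parenchyma it ranged from 0 to 2.70 CPM (median 0.228) in PBS and from 5.13 to 313 CPM (median 58.7) in HDM. The groups did not overlap in either tissue, although 1 PBS airway library, X81, held 68.6% of its group's sum and stood just under the lowest HDM library. Sprr1a ranged from 0.0390 to 0.325 CPM (median 0.135) in PBS airway against 0.350 to 3.76 CPM (median 1.04) in HDM airway, and from 0 to 0.137 CPM (median 0.0668, at most 3 counts in all 12 libraries) against 0.322 to 4.66 CPM (median 2.02) in parenchyma. The fitted log2FC of the Sprr2a sum was 8.03 ± 1.97 (SE) in airway and 7.53 ± 2.39 in parenchyma. For Sprr1a it was 2.75 ± 0.55 and 4.36 ± 0.64. The parenchyma values of both depend on the prior count, as 5 of 12 PBS parenchyma libraries held 3 or fewer counts of the Sprr2a sum. All HDM libraries were above all PBS libraries for 2 of the 9 genes in airway (Sprr1a, Sprr2a3), as for 11.7% of all genes, and for 3 of 9 in parenchyma (these and Sprr2a2), as for 20.3% of all genes.

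Krt5, Krt15, Trp63 and Krt4 did not share this rise in airway. Krt15 was at 2.79 to 158.8 CPM (median 11.5) in 3 week HDM airway, a log2FC of -1.37 ± 0.45 (SE), with 6 of 10 HDM libraries below all PBS libraries and 1 above them all. Krt5 was at 3.37 to 71.2 CPM (median 10.7; log2FC -0.67 ± 0.39), Trp63 at 2.17 to 22.8 CPM (median 5.20; -0.72 ± 0.28) and Krt4 at 0.0330 to 4.96 CPM (median 0.189; -2.08 ± 0.55). The HDM airway libraries were thus spread from well under to above the PBS range for all 4 of these genes. Krt14 was at 0.116 to 3.72 CPM (median 0.431; log2FC 0.38 ± 0.55), with 3 of 10 HDM libraries above all PBS libraries, although its median was under that of PBS mice. In parenchyma Krt15 was at 0 to 1.24 CPM (median 0.198; log2FC -2.65 ± 2.01), with 7 of 10 HDM libraries below all PBS libraries, and the log2FC was -1.51 ± 2.02 for Krt5 and -0.94 ± 0.87 for Krt14. Trp63 went the other way in parenchyma, at 0.800 to 2.16 CPM (median 1.06; log2FC 0.56 ± 0.62), with 5 of 10 above all PBS libraries. In the same 3 week airway contrast the median log2FC was 1.71 for the leukocyte list, 1.58 for the type 2 response list, -1.48 for the club cell list, -0.99 for cartilage and -0.55 for submucosal gland and myoepithelial genes, and their part in the keratin values was not tested.

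At 11 weeks the HDM levels of the Sprr2a sum had lower medians than at 3 weeks, in other mice and with no test of the times. In AIR mice it ranged from 0.0628 to 10.7 CPM (median 0.302) in PBS airway and from 1.63 to 63.9 CPM (median 11.1) in HDM airway, and from 0 to 3.41 CPM (median 0.209) in PBS parenchyma and from 2.95 to 36.3 CPM (median 8.82) in HDM parenchyma. X5 held 67.6% of the PBS AIR airway sum, and 5 of 10 HDM airway and 9 of 10 HDM parenchyma libraries were above all PBS libraries. The log2FC of HDM less PBS was 4.68 ± 0.69 (SE) in airway and 5.41 ± 0.89 in parenchyma in AIR mice, 2.76 ± 0.83 and 2.86 ± 1.09 in CS mice, and 2.26 ± 1.09 and 1.92 ± 1.22 in CS DEX mice. In AIR DEX airway it was 4.28 ± 1.18, where 7 of 10 PBS libraries held 3 or fewer counts, so the value depends on the prior count. The same holds for CS parenchyma and for CS DEX mice in each tissue, with 6 of 10 PBS libraries at 3 or fewer counts. In AIR DEX parenchyma the sum was 0 in all 10 PBS libraries, where 3 counts would be worth 0.0888 to 0.123 CPM, and 0.210 to 6.06 CPM (median 1.23) in HDM libraries. Sprr1a was 1.57 ± 0.66 higher in HDM AIR airway and 3.54 ± 0.80 higher in parenchyma on the log2 scale, from 0.638 CPM (median, range 0.126 to 1.88) against 0.0419 CPM (median, range 0 to 0.111), without overlap. The share of all genes without overlap between HDM and PBS was not counted at 11 weeks. In CS DEX mice the same Sprr1a difference was -0.21 ± 0.49 in airway and -0.33 ± 0.39 in parenchyma, as the PBS CS DEX libraries were high as well.

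Krt15, Krt13 and Krt4 were lower in HDM than PBS airway in all 4 settings at 11 weeks. The log2FC of Krt15 was -1.89 ± 0.49 (SE) in AIR, -1.62 ± 0.50 in AIR DEX, -1.21 ± 0.43 in CS and -1.33 ± 0.44 in CS DEX airway. In HDM AIR airway its level was 0.568 to 40.8 CPM (median 18.0), with 4 of 10 libraries below all PBS libraries. Krt13 stood at -2.41 ± 0.66 in AIR airway and -2.47 ± 0.68 in AIR parenchyma. In HDM AIR it was at 0 in 5 of 10 libraries of each tissue. Krt4 stood at -1.50 ± 0.62 in AIR airway. Trp63 in parenchyma was higher with HDM, from 0.258 to 0.915 CPM (median 0.701) in PBS AIR to 0.819 to 2.78 CPM (median 1.78) in HDM AIR, a log2FC of 1.36 ± 0.52, with 8 of 10 HDM libraries above all PBS libraries. Krt5 in parenchyma was higher with HDM in all 4 settings, with a log2FC of 2.33 ± 1.89 in AIR, 1.80 ± 1.61 in CS and 1.74 ± 1.66 in CS DEX mice. In AIR DEX mice it was at 0.0352 to 0.370 CPM (median 0.140) in PBS and 0.105 to 0.995 CPM (median 0.612) in HDM parenchyma. In AIR mice it was at 0 to 0.465 CPM (median 0.0542) in PBS and 0.210 to 1.61 CPM (median 0.401) in HDM parenchyma, with 3 of 10 HDM libraries above all PBS libraries. In HDM AIR airway Trp63 was at 1.14 to 10.2 CPM (median 6.49; log2FC -0.34 ± 0.26). Beside these values, the summed leukocyte genes were at 4007 to 8339 CPM in PBS AIR airway and 11337 to 17745 CPM in HDM AIR airway, and the summed cartilage genes at 6.18 to 71.3 CPM and 5.04 to 12.8 CPM, and their part was not tested.

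**Figure D2:**
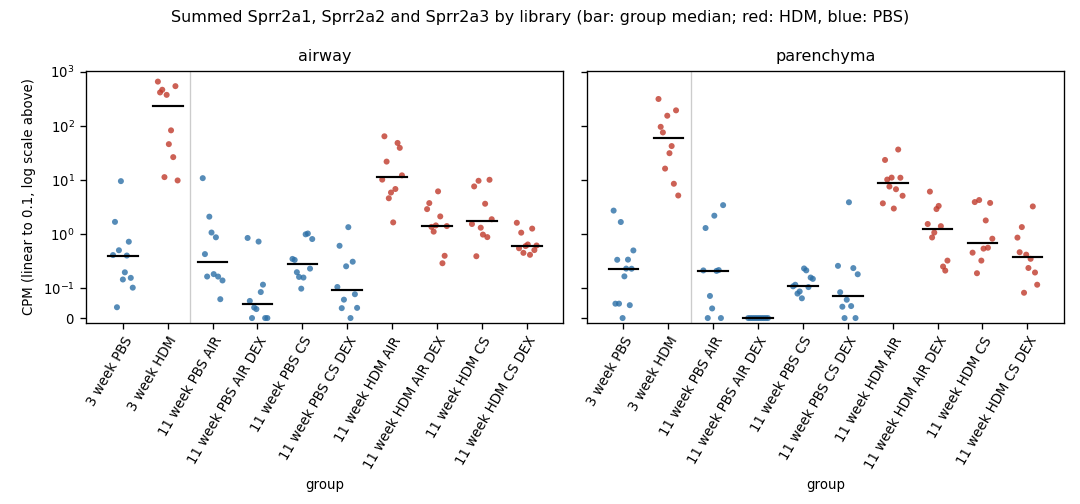
Sum of Sprr2a1, Sprr2a2 and Sprr2a3 (vertical axis, CPM, linear near 0 and on a log scale above) in each library of the 20 groups, airway on the left and parenchyma on the right, PBS mice in blue and HDM mice in red, with a bar at the group median. Highest values are those of 3 week HDM mice, and HDM AIR libraries lie above HDM CS and HDM AIR DEX libraries in the median of each tissue (11.1 against 1.70 and 1.42 CPM in airway).

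Smoke in PBS mice left the keratins and Trp63 without a call by limma, while other fits called Krt14 in airway and Krt15 in parenchyma. In airway, 0 of 9 genes were called by limma, 1 was lower at an unadjusted p under 0.05, and edgeR and DESeq2 each called 1 (Sprr2a3, log2FC -2.10 and -2.17), against 2.78% of all genes. With quality weights Krt14 was called in airway (log2FC -1.70, adjusted p = 0.0204). In parenchyma limma called 1 of 9, Sprr1a, against 5.33% of all genes, and edgeR and DESeq2 called 4, with Krt15, Sprr2a2 and Sprr2a3 beside it. Sprr1a was at 0 to 0.111 CPM (median 0.0419) in PBS AIR parenchyma, at most 3 counts in every library, and at 0.0329 to 1.11 CPM (median 0.317) in PBS CS parenchyma. It rose by 2.74 ± 0.83 (SE, log2FC, adjusted p = 0.00554), with 9 of 10 smoke libraries above all AIR libraries, a fold that depends on the prior count at these low values. The PBS AIR libraries also enter the HDM contrast on which the genes were chosen, which favours low values there and thus a rise. The call was lost where genes had to reach 10 CPM, since Sprr1a was then not tested. The Sprr2a sum was at 0 to 3.41 CPM (median 0.209) in PBS AIR and 0.0657 to 0.230 CPM (median 0.111) in PBS CS parenchyma, with X186 at 44.8% of the AIR group's sum. Its log2FC was -0.65 ± 1.29 by limma (adjusted p = 0.741), -2.52 by edgeR (adjusted p = 0.0194) and -2.54 by DESeq2 (adjusted p = 0.00419). Sprr2a2 fell with a log2FC of -2.27 by edgeR and -2.33 by DESeq2, and Sprr2a3 with -3.08 and -3.18.

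Krt15 in parenchyma separated the smoke groups without passing the limma test. It was at 0.273 to 1.18 CPM (median 0.870) in PBS AIR and 1.78 to 4.45 CPM (median 3.10) in PBS CS parenchyma, without overlap, for a log2FC of 1.78 ± 1.18 (SE, adjusted p = 0.246). The same held in HDM mice, at 0 to 0.585 CPM (median 0.115) in HDM AIR and 0.594 to 1.65 CPM (median 1.06) in HDM CS parenchyma (log2FC 3.18 ± 1.93, adjusted p = 0.242). The share of all genes that did not overlap between smoke and air was not counted. The SE was wide in this fit of both tissues. In a fit of the parenchyma alone the adjusted p was 6.33e-06 in PBS and 2.52e-06 in HDM mice, edgeR gave 0.00727 and 0.00939, and DESeq2 gave 0.00115 and 2.37e-05. The median of Krt15 in parenchyma stayed under that in airway in every group.

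The Sprr2a genes were lower with smoke in HDM mice in both tissues. The HDM AIR libraries of this comparison also enter the HDM contrast on which the genes were chosen. The comparison is thus not independent of that choice, which favours a fall from HDM AIR. The Sprr2a sum ranged from 1.63 to 63.9 CPM (median 11.1) in HDM AIR and from 0.387 to 10.0 CPM (median 1.70) in HDM CS airway. In parenchyma it ranged from 2.95 to 36.3 CPM (median 8.82) in HDM AIR and from 0.188 to 4.23 CPM (median 0.686) in HDM CS. The groups overlapped, with 5 of 10 smoke libraries below all AIR libraries in airway and 7 of 10 in parenchyma. The sum fell with a log2FC of -2.44 ± 0.44 (SE, adjusted p = 1.24e-05) in airway and -3.19 ± 0.59 (adjusted p = 7.99e-06) in parenchyma. Sprr2a2 and Sprr2a3 were the 2 of 9 genes called in each tissue, against 2.64% of all genes in airway and 4.36% in parenchyma. As reads are shared between the copies, these 2 calls are not separate results. In airway and parenchyma Sprr2a2 fell with a log2FC of -2.46 and -3.27, and Sprr2a3 with -2.37 and -3.20.

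Sprr1a was not shown to differ with smoke in HDM mice (log2FC -0.75 ± 0.60, adjusted p = 0.445 in airway; -0.25 ± 0.53, adjusted p = 0.786 in parenchyma), nor was Krt5, Krt14, Trp63, Krt13 or Krt4 called. Krt13 was called by DESeq2 in airway (log2FC 1.94, adjusted p = 0.0472). Of the type 2 response list, which holds genes known to be induced by interleukin-13 in airway epithelium, 3 of 20 were lower in each tissue. These were Clca1 (-2.31), Chil4 (-1.99) and Tff1 (-1.28) in airway and Clca1 (-2.68), Tff1 (-2.05) and Tff2 (-1.09) in parenchyma. Its median log2FC was -0.29 and -0.50, against -0.01 over all genes in both tissues. The cornified envelope list had 0 of 7 called in each tissue, with medians of 0.35 and 0.25, and the other basal cell list 0 of 20, with medians of 0.08 and 0.14.

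DEX in HDM AIR mice gave the same pattern of calls. The Sprr2a sum was at 0.287 to 6.12 CPM (median 1.42) in HDM AIR DEX airway and 0.210 to 6.06 CPM (median 1.23) in HDM AIR DEX parenchyma, with 6 and 8 of 10 libraries below all HDM AIR libraries. The sum fell with a log2FC of -3.10 ± 0.51 (SE, adjusted p = 2.38e-07) in airway and -3.22 ± 0.59 (adjusted p = 4.49e-06) in parenchyma. Sprr2a2 (-3.29 and -3.28) and Sprr2a3 (-2.95 and -3.25) were again the 2 of 9 genes called in each tissue, against 5.86% of all genes in airway and 6.02% in parenchyma. Here too the 2 calls of copies that share reads are not separate results. The contrast of DEX in HDM AIR mice too shares its HDM AIR libraries with the contrast behind the choice of genes, which favours a fall. Sprr1a differed by -0.27 ± 0.58 (adjusted p = 0.784) in airway and -0.05 ± 0.54 (adjusted p = 0.959) in parenchyma. Trp63 in parenchyma was at 0.210 to 2.24 CPM (median 0.797) with DEX, against 0.819 to 2.78 CPM (median 1.78) without, for a log2FC of -1.23 ± 0.51 that missed the threshold (adjusted p = 0.0587). Krt14 in airway was called with quality weights (log2FC -1.06, adjusted p = 0.0473) and Krt13 in parenchyma with no filter (1.34, adjusted p = 0.0348). For Trp63 in parenchyma edgeR, DESeq2, quality weights, the parenchyma alone and the fit without the 6 high airway libraries gave a call, at -1.08 to -1.23.

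The type 2 response list fell in part in the same libraries, with 9 of 20 lower and none higher in each tissue and a median log2FC of -0.95 in airway and -1.12 in parenchyma, against 0.00 and 0.01 over all genes. Clca1 (-3.43), Muc5ac (-2.55), Tff1 (-2.27) and Retnla (-2.06) led in airway and Clca1 (-3.49), Retnla (-2.69), Ccl24 (-2.05) and Tff1 (-1.83) in parenchyma. Its summed level was 1091 to 6053 CPM (median 3252) in HDM AIR airway, 1052 to 1818 CPM (median 1318) with DEX and 1253 to 3861 CPM (median 2045) with smoke. Within groups the Sprr2a sum followed this summed level, with a Pearson r of 0.713 and a Spearman rho of 0.63 over all airway libraries (21 at 3 weeks and 80 at 11 weeks) and 0.669 and 0.605 over all parenchyma libraries (22 and 80), each less its group mean (permutation test, adjusted p = 3.37e-05, the smallest it can give). The type 2 response sum was also followed in airway by Trp63 (r 0.577), Krt5 (0.553), Krt15 (0.532), Krt4 (0.457) and Krt14 (0.431). The permutation test gave the same adjusted p for each. In parenchyma Krt15 (r 0.42), Krt5 (0.411) and Sprr1a (0.317) passed by both measures and the other single genes did not. The relation was thus not particular to the Sprr2a sum. Genes of the cornified envelope list were not lower, with 0 of 7 called in airway (median 0.47) and 1 of 7, Ivl, higher in parenchyma (log2FC 1.14, list median 0.58).

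DEX in PBS AIR mice gave 0 calls of 9 by limma in airway, with 1 gene lower at an unadjusted p under 0.05, against 2.41% of all genes. EdgeR and DESeq2 called 2, Sprr2a2 and Sprr2a3. The PBS AIR libraries of this comparison also enter the HDM contrast behind the choice of genes, which favours a rise from PBS AIR. The Sprr2a sum was at 0 to 0.842 CPM (median 0.0460) with DEX and 0.0628 to 10.7 CPM (median 0.302) without, a log2FC of -2.71 ± 1.26 (SE, adjusted p = 0.141). In parenchyma limma also called 0 of 9, with 2 higher and 1 lower at an unadjusted p under 0.05, against 3.16% of all genes, while edgeR and DESeq2 called 3 each (Sprr1a, Sprr2a2 and Sprr2a3). The Sprr2a sum was listed at 0 in all 10 DEX libraries and at 0 to 3.41 CPM (median 0.209) without DEX, and its adjusted p was 0.0965 by limma, 0.000168 by edgeR and 3.68e-10 by DESeq2. Sprr1a was at 0 to 0.576 CPM (median 0.289) with DEX and 0 to 0.111 CPM (median 0.0419) without (log2FC 2.16 ± 0.86, adjusted p = 0.0552), and it was called when any of X76, X108, X116, X128 or X160 was left out. Krt15 was at 1.23 to 2.51 CPM (median 1.71), above all 10 libraries without DEX (log2FC 1.17 ± 1.24, adjusted p = 0.557, and 0.00661 in the parenchyma alone). The share of all genes that stood so in this contrast was not counted. Krt14 was called higher in the parenchyma alone (log2FC 1.32, adjusted p = 0.0475) and with quality weights (1.49, adjusted p = 0.0146).

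In smoke-exposed PBS mice DEX raised Sprr1a in both tissues. Sprr1a was the 1 of 9 genes called by limma in each, against 2.48% of all genes in airway and 2.75% in parenchyma. The PBS CS libraries also enter an HDM contrast that may have served the choice of genes, which would favour a rise. In airway it was at 0.0761 to 0.436 CPM (median 0.173) in PBS CS and 0.153 to 1.57 CPM (median 0.585) in PBS CS DEX, a log2FC of 1.69 ± 0.59 (SE, adjusted p = 0.0444), with 7 of 10 DEX libraries above all others. That call was lost, at the same sign, when any one of 11 libraries was left out (log2FC 1.53 to 1.70, adjusted p 0.0588 to 0.0929). These were X13, X33, X53, X93, X113 and X174 of PBS CS and X15, X55, X115, X175 and X195 of PBS CS DEX. In parenchyma it was at 0.0329 to 1.11 CPM (median 0.317) in PBS CS and 0.184 to 11.6 CPM (median 1.47) in PBS CS DEX, a log2FC of 2.11 ± 0.51 (adjusted p = 0.00115), with 6 of 10 above all others. One library, X116, held 47.7% of the PBS CS DEX sum, and the call remained without it and X160.

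Krt14 in parenchyma was at 0 to 0.236 CPM (median 0.0716) in PBS CS and 0.0914 to 0.989 CPM (median 0.220) in PBS CS DEX, a log2FC of 1.67 ± 0.68 that missed the threshold by limma (adjusted p = 0.0767) and passed by edgeR (adjusted p = 0.0262) and DESeq2 (adjusted p = 0.0103). The Sprr2a sum was at 0 to 3.85 CPM (median 0.0735) in PBS CS DEX parenchyma, where X116 held 81.2% of the group's sum, and at 0.0657 to 0.230 CPM (median 0.111) in PBS CS (log2FC -0.34 ± 1.38, adjusted p = 0.905). Sprr2a3 alone was called there by edgeR (log2FC 2.84, adjusted p = 0.0458) and DESeq2 (2.96, adjusted p = 0.00802). Of the cornified envelope list, 1 of 7 was higher in each tissue, and this was Ivl, which encodes involucrin (log2FC 1.74 in airway and 1.63 in parenchyma).

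**Figure D3:**
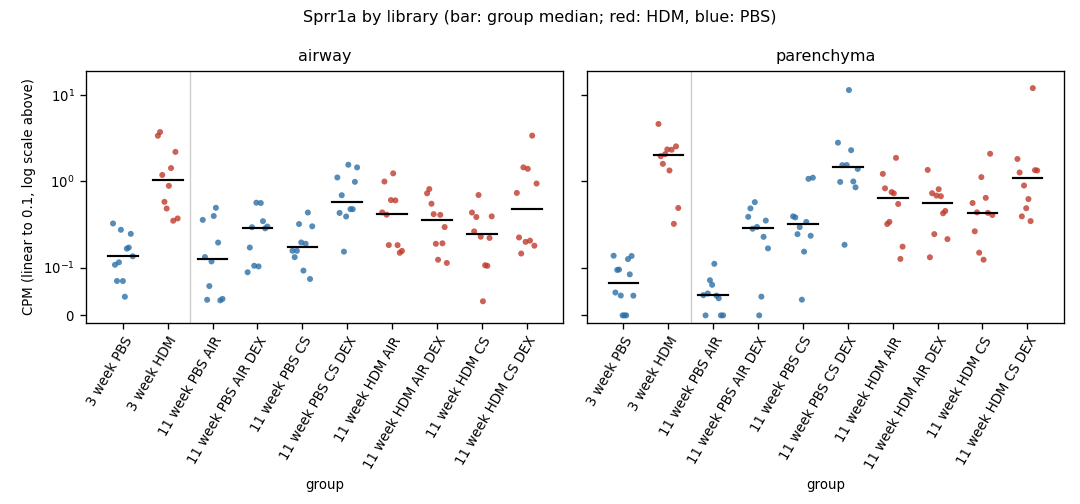
Sprr1a (vertical axis, CPM, linear near 0 and on a log scale above) in each library of the 20 groups, airway on the left and parenchyma on the right, PBS mice in blue and HDM mice in red, with a bar at the group median. In parenchyma the medians stand at 0.0419 CPM in PBS AIR, 0.317 in PBS CS and 1.47 in PBS CS DEX mice, and 1 library each of PBS CS DEX and HDM CS DEX mice lies above 10 CPM.

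DEX in HDM CS mice gave no call by limma in either tissue, against 2.04% of all genes in airway and 2.03% in parenchyma. At an unadjusted p under 0.05, 1 gene was higher and 2 were lower in airway and 1 was higher in parenchyma. EdgeR called 3 in airway (Sprr1a, Sprr2a2 and Sprr2a3) and DESeq2 2 (Sprr1a and Sprr2a2), and both called 1 in parenchyma (Sprr1a). Sprr1a was at 0.346 to 12.2 CPM (median 1.08) in HDM CS DEX parenchyma and 0.124 to 2.10 CPM (median 0.435) in HDM CS, a log2FC of 1.23 ± 0.48 (SE, adjusted p = 0.104), with X160 at 58.7% of the DEX group's sum. In airway it differed by 1.21 ± 0.58 (adjusted p = 0.203). The Sprr2a sum was at 0.411 to 1.61 CPM (median 0.604) in HDM CS DEX airway, against 0.387 to 10.0 CPM (median 1.70), a log2FC of -1.69 ± 0.69 (adjusted p = 0.118).

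The difference with HDM itself was also set side by side across smoke and DEX, as a description, because this interaction contains the contrast that chose the genes and a larger rise in AIR mice is favoured by that choice. For HDM by smoke, 1 of 9 genes passed an adjusted p under 0.05 in parenchyma, against 36% of all genes, and 0 of 9 in airway by limma, edgeR or DESeq2, none at an unadjusted p under 0.05, against 19.1%. For HDM by DEX in AIR mice, 0 of 9 passed in airway by the 3 tools, none at an unadjusted p under 0.05, against 4.62% of all genes. In parenchyma 0 passed by limma, with 1 lower at an unadjusted p under 0.05, and 1, Sprr1a, by edgeR and by DESeq2, against 12.4%. The gene that passed for HDM by smoke was Sprr1a, whose log2FC with HDM in parenchyma was 3.54 in AIR and 0.55 in CS mice. In a fit of the parenchyma alone Trp63 and Sprr2a2 passed as well. DESeq2 also passed the Sprr2a sum for HDM by DEX in parenchyma, where all PBS AIR DEX libraries were at 0. Nothing is read from these counts.

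**Figure D4:**
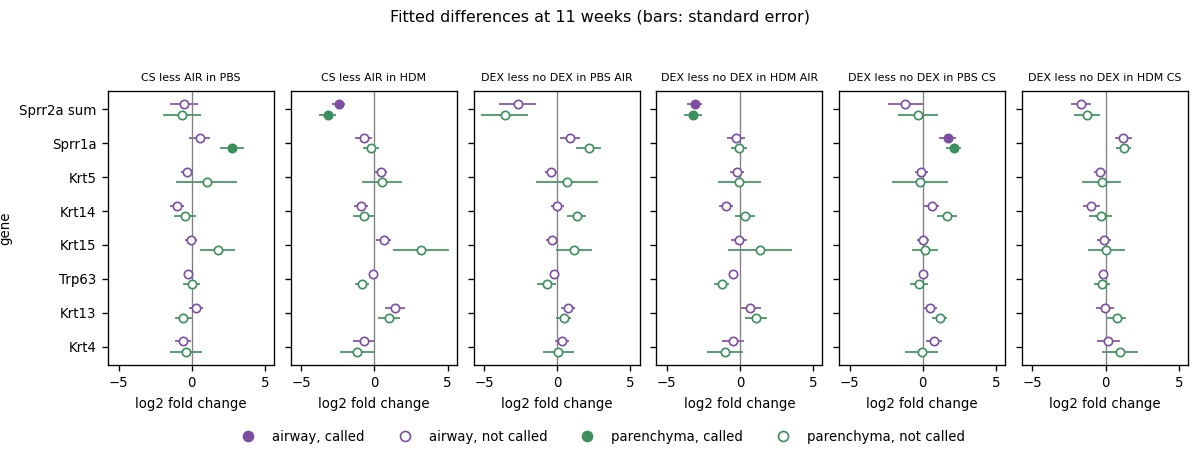
Fitted log2 fold changes (horizontal axis) of the Sprr2a sum and the 7 other genes in the 6 contrasts of smoke and DEX at 11 weeks, airway in purple and parenchyma in green, with bars for the standard error and filled points for calls. Filled points are those of the Sprr2a sum in HDM mice with smoke (-2.44 and -3.19) and with DEX (-3.10 and -3.22), and of Sprr1a in PBS parenchyma with smoke (2.74) and in PBS CS mice with DEX (1.69 and 2.11).

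Within groups, the basal genes rose and fell together from one airway library to the next. Over the 21 airway libraries of 3 weeks and the 80 of 11 weeks, each less its group mean, Krt5 and Krt15 had a Pearson r of 0.967 and a Spearman rho of 0.969, and Krt5 and Trp63 0.944 and 0.943 (permutation test, adjusted p = 2.5e-05 and 2.8e-05 for r and rho). Without the 2 libraries farthest from the median, r was 0.967 and 0.941. Krt5 and Krt4 had an r of 0.849 (rho 0.875, 0.841 without the 2 farthest) and Krt5 and Krt14 0.79 (rho 0.818, 0.772 without the 2 farthest), with the same adjusted p. Sprr1a stood apart from them, with an r of -0.0673 against Krt5 (rho -0.0569, permutation test, adjusted p = 0.578 and 0.622). It followed the Sprr2a sum weakly (r 0.246, rho 0.222, adjusted p = 0.0243 and 0.0458). The Sprr2a sum itself weakly followed Krt5 (r 0.302), Trp63 (0.301), Krt4 (0.299), Krt14 (0.285) and Krt15 (0.278). Each of these had an adjusted p under 0.05 by both measures. Of 28 pairs, 21 had an adjusted p under 0.05 by both measures in airway and 1 in parenchyma, Krt5 with Krt15 (r 0.616, rho 0.545). Several of these genes had so few counts in parenchyma that covariation could hardly be seen there. In HDM AIR parenchyma, for example, all 10 libraries held 3 or fewer counts of Krt13 and of Krt4. The share of all gene pairs that varied together was not counted.

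The basal genes also moved with markers of other airway wall tissue. Krt5 followed the summed submucosal gland and myoepithelial genes with an r of 0.916 and a rho of 0.912 (0.912 without the 2 farthest) and the summed cartilage genes with 0.802 and 0.831, and it ran against the alveolar type II genes (r -0.77) and leukocyte genes (r -0.602; permutation test, adjusted p = 3.37e-05 for each, the smallest it can give, over 8 lists, 8 units and both tissues, where 57 relations were under 0.05 by both measures). Myoepithelial cells express basal keratins themselves. The list also holds contractile genes made by smooth muscle, so the relation does not single out gland or myoepithelial cells. In X153, the highest library for Krt5 (99.7 CPM), the cartilage sum was 100.6 CPM, against a median of 9.50 CPM in its group. How much of the spread in Krt5 between airway libraries is tissue composition was not tested.

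**Figure D5:**
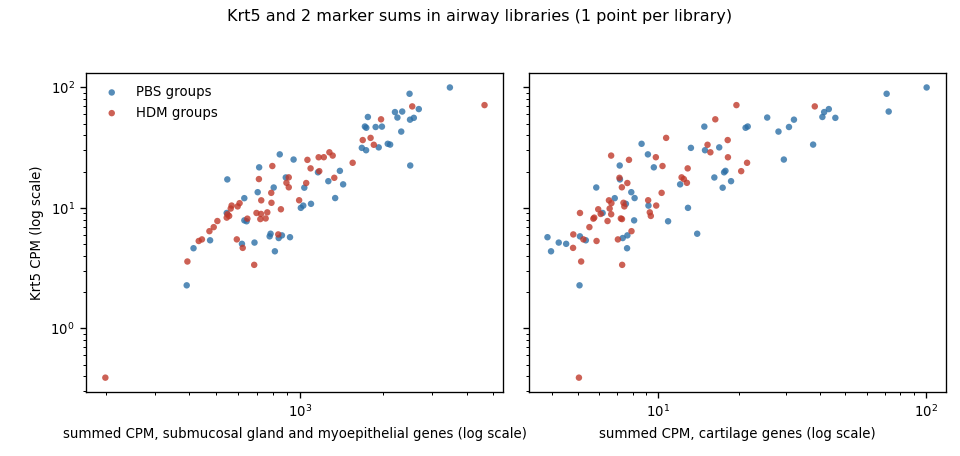
Krt5 (vertical axis, CPM, log scale) against the summed CPM of submucosal gland and myoepithelial genes (left) and cartilage genes (right, horizontal axes on a log scale), 1 point per airway library, PBS groups in blue and HDM groups in red. Krt5 is high where the marker sums are high, and the lowest point is X109 at 0.391 CPM. The left sum includes contractile genes that smooth muscle also makes.

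Over the 20 group means, genes outside the set with the most similar pattern (Pearson r of mean log2 CPM, a description over groups that share tissue and treatment) differed by role. For Krt5 they were Gtsf1l, Slc5a8 and Six2 (each 0.99), for Trp63 Scara3 (0.99), S100b (0.98) and the basal keratin Krt17 (0.98), and for Krt15 Bpifa1 (0.98), Cyp4a12b and Otx1 (0.97). Krt14 was followed by Strbp (0.91), Gnaz and Grin1os (0.90), Krt13 by Ccdc66, Aox1 (0.94) and Mum1l1 (0.93), and Krt4 by Gria4, Gpld1 and Olfml2b (0.97). Genes nearest to Sprr1a were Adamts4 (0.92), Tgm1 (0.92), which encodes a transglutaminase that cross-links the cornified envelope, and Mpzl3 (0.91). Those nearest to the Sprr2a sum were Gm15056 (0.99), Lbhd2 (0.98) and Noxred1 (0.97). Of these 24 genes, 5 were also named with Spearman's rho.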

How the data were processed

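RNA was sequenced from 203 libraries of mouse airway and parenchyma as 100 bp single reads. Per the labels and methods, the authors used bcl2fastq 2.20.0.422, STAR 2.5.1b to mm10, RSEM 1.2.31 and kallisto 0.44.0, and which tool made the gene table is not given in the sources used here. The deposited values are estimated counts per gene, of which 20.3% of the non-zero ones are not whole, and they were rounded here. Symbols came from GENCODE M21 by identifier without version, matching 42462 of 43346 identifiers, of which 23106 had the same version. The methods name the M21 annotation for alignment. CPM used TMM factors over all libraries. Within groups no library pair was alike enough to be repeats of 1 library (931 pairs compared). The replicate numbers only name libraries.

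The 43 libraries of 3 weeks and the 160 of 11 weeks were fitted separately with limma-voom (R 4.3.3, limma 3.58.1, edgeR 4.0.16 for TMM), one mean per group, keeping genes that reached, in 9 or more libraries, the CPM that 10 counts are worth at the median library size, with Benjamini-Hochberg adjustment over all genes tested. The Sprr2a sum replaced its 3 rows in a fit of its own. The fit was also run on simulated counts with the same dispersion for every gene. That run does not show how the fit does for genes as scarce or variable as these. Also run were DESeq2 1.42.0, the quasi-likelihood test of edgeR, other filters, scalings, weights and sets of libraries, and leaving out each library. Leaving out the 6 high airway libraries or X116 and X160, and the relations with summed marker lists, were chosen after seeing the data. Relations within groups used log2 CPM with a prior count of 2 and 100000 resamples.

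The genes and the 16 lists were chosen with earlier results of these data known. The text names all 10 genes, at most 4 called genes of a list with the largest change, the 3 genes most like each unit over the 20 groups, and libraries that were highest for 3 or more units or held over 50% of a group's sum. X109 was singled out after its values were seen.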

Additional observations from a re-analysis of the deposited data

Results flagged for a closer look

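Of the combinations of a gene or the Sprr2a sum with a group of 10 libraries, 13 (9.09%) held a library whose gap to its nearest neighbour was past Dixon's 95% limit, where chance gives about 1 in 20 groups. For Sprr1a it was X160 (12.2 CPM, HDM CS DEX parenchyma), and for the Sprr2a sum X116 (3.85 CPM, PBS CS DEX parenchyma). In HDM AIR airway X109 was low for Krt5 (0.391 CPM), Krt15 (0.568 CPM) and Trp63 (1.14 CPM). In PBS AIR parenchyma X26 was low for Krt15 (0.273 CPM) and X106 for Trp63 (0.258 CPM). Krt13 was high in X83 (0.896 CPM, 3 week HDM airway), X5 (1.72 CPM, PBS AIR airway), X9 (0.182 CPM, HDM AIR airway), X30 (0.0961 CPM, HDM AIR parenchyma) and X151 (0.287 CPM, HDM AIR DEX airway), and low in X108 (0.0382 CPM, PBS AIR DEX parenchyma). These Krt13 values rest on few counts.

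The difference of Sprr1a with HDM in parenchyma was 3.54 in AIR and 0.55 in smoke-exposed mice on the log2 scale, an interaction of -2.99. It contains the contrast used to choose the genes, so it is a description and no difference between the settings is drawn from it.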

How the results depend on the processing

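No difference of a called gene reversed under any alternative run. Of the 282 values of called genes under the alternatives, 279 kept direction and call and 3 lost the call. These were Krt5 between tissues at 11 weeks with at least 10 CPM, and Sprr1a with DEX in PBS CS airway with no filter and with libraries left out. Leaving out single libraries entered this count only by the lowest and highest log2FC of each gene. The many single libraries without which that Sprr1a call was lost, named above, therefore counted once. Alternatives in which a called gene was not tested did not enter the count. Depth limited Sprr1a, Krt13, Krt14, Krt4 and the Sprr2a genes, as their low groups had few counts per library. Of 1129 values of HDM less PBS under the alternatives, 1096 moved by less than 1 SD. That SD was of log2 CPM between libraries of the HDM group, a limit wider than the error of a group mean. No paired analysis was run because the replicate numbers only follow accession order and pair no libraries. Library codes mostly run as neighbouring airway and parenchyma libraries of one group, but no label states that neighbours share a mouse. If they do, results in both tissues are not independent of each other.

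Counts of calls per contrast moved as follows. With at least 10 CPM, which leaves few of the genes tested, 2 genes were called between tissues at each time and 0 with smoke in HDM mice, DEX in HDM AIR and DEX in PBS CS in either tissue, and smoke in PBS and HDM by smoke in parenchyma. Then 12 of 32 HDM differences were above 0, against 44 of 90. With the copies summed, smoke in HDM and DEX in HDM AIR gave 1 call in each tissue. The tissue pair alone gave 3 calls at 11 weeks. EdgeR and DESeq2 gave 1 and 1 with smoke in PBS airway, 2 and 2 with DEX in PBS AIR airway, 3 and 2 with DEX in HDM CS airway, 4 and 4 with smoke in PBS parenchyma, 3 and 3 with DEX in PBS AIR and in PBS CS parenchyma, 1 and 1 with DEX in HDM CS parenchyma and in HDM by DEX in parenchyma, and they called the Sprr2a sum in 8 and 9 contrasts, against 4 of 18.

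Quality weights gave 1 with smoke in PBS airway and DEX in HDM CS airway, 2 with DEX in PBS AIR and 3 with DEX in PBS CS parenchyma. A compartment alone gave 2 with smoke in PBS and DEX in PBS CS, 3 with DEX in PBS AIR and 3 with HDM by smoke, all in parenchyma. No filter gave 3 with DEX in PBS AIR parenchyma and 0 with DEX in PBS CS airway. DEX in PBS AIR parenchyma had 1 call without X116 and X160, and DEX in PBS CS parenchyma 2 without the 6 high airway libraries. Leaving out single libraries gave 0 to 1 with smoke in PBS airway (1 without X153: Krt14, log2FC -1.44, adjusted p = 0.0436), DEX in PBS CS airway, DEX in HDM CS airway (1 without X57: Sprr2a2, log2FC -2.10) and DEX in PBS AIR parenchyma. Between tissues at 3 weeks Krt14 was called without X41, X61, X63, X83 or X123, and with DEX in HDM AIR parenchyma Trp63 was called without X50 or X170. Of 28 airway pairs 21 varied together, and 1 in parenchyma, where several genes had few counts.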

Other observations

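Ivl, which encodes the cornified envelope precursor involucrin and is no member of the 10 genes, rose with DEX in 5 of the 8 contrasts of DEX in a tissue. Its mean level went from 0.243 to 0.771 CPM in PBS AIR airway (log2FC 2.10 ± 0.47, SE, limma adjusted p = 0.000506) and from 0.481 to 1.76 CPM in PBS AIR parenchyma (2.08 ± 0.37, adjusted p = 4.35e-06). In PBS CS mice Ivl rose by 1.74 ± 0.44 in airway (adjusted p = 0.00241) and 1.63 ± 0.36 in parenchyma (adjusted p = 0.000338), and in HDM AIR parenchyma by 1.14 ± 0.37 (adjusted p = 0.0119). It was one of 7 genes of the cornified envelope list that were tested.

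Among other squamous genes, smoke in PBS mice raised Spink5, which encodes a serine protease inhibitor of the epidermis, from a mean of 0.0519 to 0.758 CPM in airway (log2FC 4.02 ± 0.52, SE, limma adjusted p = 5.69e-10) and from 0.0267 to 1.61 CPM in parenchyma (5.27 ± 0.52, adjusted p = 2.34e-16). Trim29, known as a gene of basal and squamous epithelium, rose by 1.09 ± 0.19 in airway (adjusted p = 2.04e-06) and 1.92 ± 0.17 in parenchyma (adjusted p = 3.46e-19). Tgm1, the envelope transglutaminase, rose in parenchyma by 1.35 ± 0.27 (adjusted p = 1.41e-05). In parenchyma 5 of 17 genes of the other squamous and oesophageal list were higher with smoke and none was lower (median log2FC 0.28, all genes 0.00), and the leukocyte list had 4 of 12 higher and 1 lower. The part of other cells in these values was not tested.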
